A study of Mus musculus with 15 samples.

Results

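Antigen presentation was followed through 10 genes of the major histocompatibility complex (MHC) class I and class II routes, chosen by name and not by their values, and all 10 of them were found among the 29659 genes of every library. The class I genes were H2-K1, H2-D1, B2m, Tap1 and Tapbp, and the class II genes were Cd74, H2-Aa, H2-Ab1, H2-Eb1 and Ciita. Bulk RNA-seq had been run on the thalamus of mice 4.5 months old, giving 15 libraries. By their labels all mice, controls included, were homozygous for a human APOE4 knock-in, which the mouse Apoe level of 1 library goes against. The 5EL mice (n = 5) carried the 5xFAD amyloid transgenes, whose Thy1 promoter acts in neurons, together with Lilrb4a+/+, and the 5ELKO mice (n = 4) carried 5xFAD with Lilrb4a-/-. Mice without 5xFAD carried Lilrb4a+/+ in EL (n = 3) and Lilrb4a-/- in ELKO (n = 3). No group without APOE4 and none with wild-type Apoe was analysed here, so no value below bears on APOE4 itself. The labels give no sex and do not say that each library is a separate mouse, so the p-values below measure the spread between these libraries. The study states that experiments its figures do not split by sex used male mice, without naming these libraries.

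MHC class I presents peptides made inside the cell. The proteasome cuts proteins, the Tap1 and Tap2 transporter moves the peptides into the endoplasmic reticulum, tapasin (Tapbp) holds the empty class I molecule to the transporter, and the heavy chains H2-K1 and H2-D1 reach the surface with beta-2 microglobulin (B2m). MHC class II presents peptides from engulfed material: H2-Aa with H2-Ab1 forms the I-A molecule, H2-Eb1 is the beta chain of I-E, the invariant chain Cd74 fills the groove until cathepsins remove it, and Ciita is the coactivator that switches these genes on. In brain, class I is made by many cells and rises in microglia around amyloid, whereas class II is largely limited to a small share of microglia and to immune cells at the brain's borders.

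The values are deposited log2 values with no counts, so the depth behind a gene and the counting error are unknown, and genes near the bottom of the scale are drawn close together. Lilrb4a showed this: it was 2.33 in all 7 libraries labelled Lilrb4a-/-, 2.34 to 2.42 in EL and 2.40 to 2.66 in 5EL. The labelled tissue carried its markers, with the 10 thalamic genes averaging between 9.90 (Gbx2) and 13.8 (Slc17a6). In 2 libraries, 5EL replicate 1 and ELKO replicate 2, choroid plexus genes stood apart. The mean log2 value of 10 choroid plexus markers was 8.71 and 9.11 there and 6.37 to 6.97 in the other 13. In ELKO replicate 1, mouse Apoe was 10.9 against 5.92 to 6.37 in the other 14 libraries, which goes against a homozygous replacement of that gene. In EL replicate 3 the mean of 5 erythroid markers was 5.39 against 3.93 to 4.65 elsewhere, and the thalamic gene Calb2 was 10.7 against 12.3 to 13.1. The mean of 9 hepatocyte markers was 5.61 to 6.02 in the 4 5ELKO libraries and 6.11 in EL replicate 1, against 5.14 to 5.41 in the other 10. Where leaving out 1 of these libraries moved a main result, the changed value or count is given, though not for every gene and comparison.

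The promoters of the 2 class I heavy chains, of B2m and of H2-Aa are printed here because class I and class II chains differed in how they varied between libraries, and their upstream sequences show what they share and what they do not. RefSeq windows on GRCm38.p6, from 250 bases before to 50 bases after the start, were given for 7 of the 10 genes; H2-Ab1, Cd74 and Ciita are named only. The printed stretches run 5′ to 3′ in the direction of the gene. Capitals mark the letters of 4 short motifs on either strand, searched without mismatch: GGGATTCCC (a palindrome bound by NF-kB factors), GAANNGAAA (the core of interferon response elements, here on the reverse strand), TGACG (the core bound by CREB/ATF factors) and CCAAT (bound by NF-Y). TGACGTCA in H2-Aa is the overlap of TGACG on both strands. The stretches lie at chr17:34000358-34000537 on the minus strand, chr17:35262904-35263083 on the plus strand, chr2:122147497-122147676 on the plus strand and chr17:34287834-34288013 on the minus strand.
H2-K1: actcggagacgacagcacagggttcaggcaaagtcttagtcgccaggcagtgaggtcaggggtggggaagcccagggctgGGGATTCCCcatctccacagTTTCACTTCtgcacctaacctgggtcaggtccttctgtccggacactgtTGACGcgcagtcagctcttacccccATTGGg
H2-D1: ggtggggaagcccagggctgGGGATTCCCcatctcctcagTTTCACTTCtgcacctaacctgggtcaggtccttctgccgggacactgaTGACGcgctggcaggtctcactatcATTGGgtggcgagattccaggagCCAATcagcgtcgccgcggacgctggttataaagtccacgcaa
B2m: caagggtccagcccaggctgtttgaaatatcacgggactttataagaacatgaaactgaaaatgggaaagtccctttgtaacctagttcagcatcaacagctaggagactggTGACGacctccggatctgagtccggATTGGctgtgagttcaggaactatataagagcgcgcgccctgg
H2-Aa: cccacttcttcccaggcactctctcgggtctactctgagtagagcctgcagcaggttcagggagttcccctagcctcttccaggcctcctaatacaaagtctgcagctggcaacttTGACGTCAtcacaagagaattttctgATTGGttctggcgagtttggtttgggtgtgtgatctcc

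In order of reading, the H2-K1 and H2-D1 windows held all 4 motifs in the same order. B2m, Tap1 and H2-Aa held CCAAT and TGACG without a match to the other 2 strings, and the Tapbp and H2-Eb1 windows held CCAAT alone. The printed B2m stretch does hold gaaactgaaa, a GAA repeat of another spacing, which GAANNGAAA does not match. The search therefore does not show that B2m lacks an interferon response element. Over 32851 RefSeq windows of 300 bases, CCAAT was present in 37.4%, TGACG in 20.8%, both in 7.73%, GAANNGAAA in 7.52% and GGGATTCCC in 0.353%. A match of letters is a description and not a binding site, and the absence of a match says only that these letters were not in the window.

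In thalamus the class I chains were abundant and the class II chains were low. Levels were compared between genes as the mean log2 value over 15 libraries minus the log2 exon length in kb. B2m was highest at 10.3, followed by H2-D1 at 8.12, H2-K1 at 7.45 and Tapbp at 6.82. Cd74 at 4.93, H2-Eb1 at 3.55, Tap1 at 3.22, H2-Ab1 at 2.60 and H2-Aa at 2.26 formed the lower range, and Ciita was last at 0.26. The SD over libraries was between 0.05 (Ciita) and 0.23 (B2m), and every pair of neighbours in this order lay further apart than the sum of their SDs. The closest were H2-Eb1 with Tap1 and H2-Ab1 with H2-Aa, whose order also depends on the exon lengths used. In bulk tissue a lower level from fewer cells of a type and from less RNA per cell cannot be told apart.

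The heavy chains H2-K1 and H2-D1 had higher means in the 9 libraries with 5xFAD than in the 6 without. The log2 values of H2-K1 were 9.21, 8.86, 9.08, 9.10 and 9.07 in 5EL replicates 1 to 5 and 9.10, 8.97, 8.96 and 9.19 in 5ELKO replicates 1 to 4. Without 5xFAD, H2-K1 stood at 8.88, 8.95 and 9.03 in EL and at 8.86, 8.88 and 8.87 in ELKO replicates 1 to 3. The 3 ELKO libraries were the closest group of all, within 0.02 of each other, and every 5ELKO library lay above every ELKO library, while 5EL replicate 2 at 8.86 fell among the mice without 5xFAD.

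For H2-D1, the deposited log2 values were 9.52, 9.47, 9.55, 9.66 and 9.70 in 5EL replicates 1 to 5 and 9.74, 9.25, 9.43 and 9.66 in 5ELKO replicates 1 to 4. Without 5xFAD, H2-D1 stood at 9.38, 9.40 and 9.31 in EL and at 9.42, 9.46 and 9.37 in ELKO replicates 1 to 3. Every 5EL library was above every EL library. The 5ELKO libraries were split, with replicates 1 and 4 at 9.74 and 9.66 and replicate 2 at 9.25, the lowest of all 15.

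The light chain B2m varied most, and its log2 values were 10.15, 9.96, 10.31, 10.38 and 10.18 in 5EL replicates 1 to 5 and 10.38, 9.81, 9.98 and 10.59 in 5ELKO replicates 1 to 4. Without 5xFAD, B2m stood at 9.88, 9.98 and 10.33 in EL and at 9.89, 9.91 and 10.19 in ELKO replicates 1 to 3. The groups overlapped fully: the lowest (9.81, replicate 2) and the highest (10.59, replicate 4) library were both 5ELKO.

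Values of the peptide transporter subunit Tap1 were 5.69, 5.72, 5.61, 5.62 and 5.77 in 5EL replicates 1 to 5 and 5.88, 5.66, 5.80 and 5.71 in 5ELKO replicates 1 to 4. Without 5xFAD, Tap1 stood at 5.68, 5.54 and 5.48 in EL and at 5.64, 5.69 and 5.59 in ELKO replicates 1 to 3. 5ELKO replicate 1 was highest and EL replicate 3 lowest, and the groups overlapped. Tapasin (Tapbp) values were 8.71, 8.83, 8.73, 8.84 and 8.86 in 5EL replicates 1 to 5 and 8.64, 8.57, 8.76 and 8.79 in 5ELKO replicates 1 to 4. Without 5xFAD, Tapbp stood at 8.73, 8.52 and 8.27 in EL and at 8.70, 8.74 and 8.45 in ELKO replicates 1 to 3. EL replicate 3 was again the lowest library at 8.27, ELKO replicate 3 followed at 8.45, and 5EL had no library below 8.71.

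**Figure D1:**
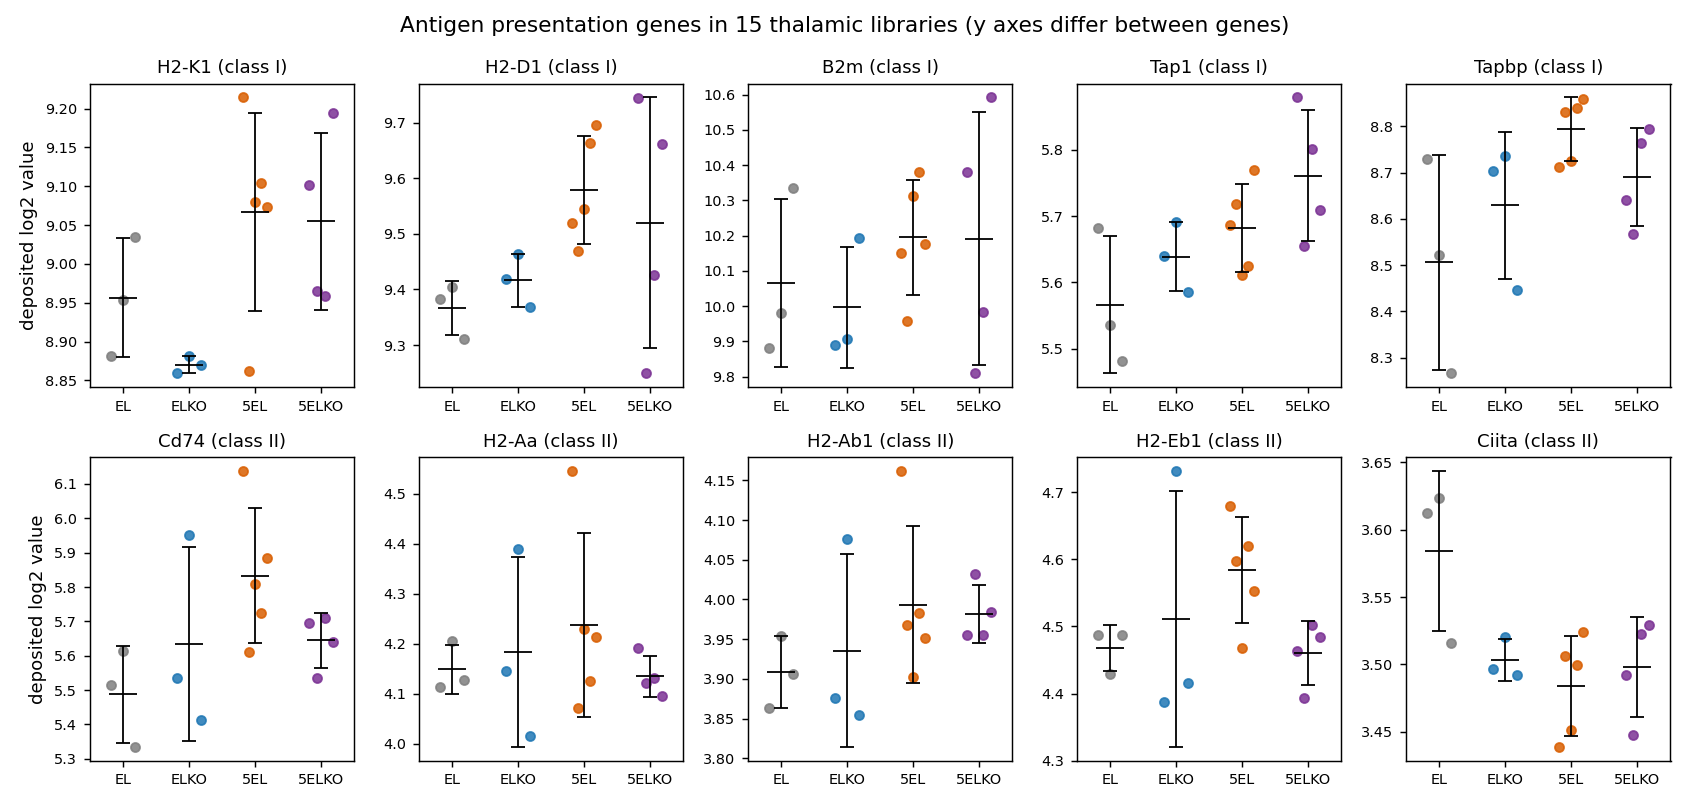
Deposited log2 values of the 10 antigen presentation genes (1 panel each, y axes differ between genes) for the 3 EL, 3 ELKO, 5 5EL and 4 5ELKO libraries; points are libraries, horizontal bars are group means and whiskers are 1 SD. The 5 class I genes had higher means in the 2 groups with 5xFAD than in the group of the same Lilrb4a genotype, by 0.06 to 0.29, and Cd74, H2-Aa, H2-Ab1 and H2-Eb1 were highest in 5EL replicate 1 within 5EL and in ELKO replicate 2 within ELKO, although the 5EL values of H2-Eb1 lay close together.

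Averaged over the Lilrb4a genotypes, the class I genes were higher with 5xFAD by 0.12 to 0.17 on the log2 scale, and none of these differences passed the adjusted threshold. H2-K1 averaged 9.06 ± 0.11 (SD, n = 9) with 5xFAD and 8.91 ± 0.07 (n = 6) without, a log2 fold change of 0.15 ± 0.05 (SE) with a 95% interval of 0.03 to 0.26. For H2-D1 the change was 0.16 ± 0.07, for Tap1 0.12 ± 0.05, for Tapbp 0.17 ± 0.07 and for B2m 0.16 ± 0.11. The interval of B2m (-0.08 to 0.40) included 0. The adjusted p was 0.693 for H2-K1, H2-D1, Tap1 and Tapbp and 0.697 for B2m (limma, Benjamini-Hochberg over 15804 genes).

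As a count over the 10 genes, 0 passed an adjusted p under 0.05 (limma) in this average, beside 0% of all genes, and 5 passed a nominal p under 0.05, beside 6.57% of all genes. Of these 5, the genes H2-K1, H2-D1, Tap1 and Tapbp were higher with 5xFAD, a direction and threshold met by 3.56% of all genes, and Ciita was lower. The log2 fold change was positive for 9 of the 10, beside 49.7% of all genes, and the median over the 10 was 0.13 against -0.00 over all genes. The 10 genes are not independent of each other, since several correlate across libraries, and no test was made over them. Leaving out ELKO replicate 1 gave 4 genes at a nominal p under 0.05, beside 1788 of 15830 among all genes. Without EL replicate 3 there were 2 (beside 474 of 15825), and without ELKO replicate 3 there was 1 (454 of 15830). Omitting 5ELKO replicate 1 gave 3 (917 of 15801), and omitting EL replicate 1 gave 4 (2735 of 15831). Without 5EL replicate 1 and ELKO replicate 2 together there were 7 (1046 of 15820). The share over all genes thus moved with the omission as well. A fit over 12 libraries used the replicate number as a block, setting 5EL with EL and 5ELKO with ELKO of the same number. There 0 of the 10 genes passed a nominal p under 0.05, beside 851 of 15791 among all genes. Deviations of these same-numbered libraries correlated at -0.32 to 0.23, so the numbers were not shown to pair them. EL and ELKO were not blocked together in it. In that fit H2-K1 differed by 0.12, H2-D1 by 0.10, Tap1 by 0.12, Tapbp by 0.14 and Ciita by -0.07.

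Within each Lilrb4a genotype the same contrast was less even. For 5EL against EL, 0 of the 10 genes passed the adjusted threshold in limma (0% of all genes), and 4 passed at the nominal one (7.7% of all genes): Tapbp at 0.29 ± 0.09, Cd74 at 0.35 ± 0.12, H2-D1 at 0.21 ± 0.09 and Ciita at -0.10 ± 0.03. All 4 had an adjusted p of 0.63 by limma. H2-D1 was the 1 gene of the 10 whose 5EL and EL libraries did not overlap, beside 3.26% of all genes. Without EL replicate 3, which held the lowest Tapbp and Cd74 values of all libraries, the nominal count was 1 (Ciita), beside 354 of 15825 genes. The Tapbp difference was then 0.17 and that of Cd74 0.27. Without EL replicate 1 the count was 4 (Tap1, Tapbp, Cd74 and Ciita), beside 3204 of 15831 genes, and Tapbp differed by 0.40 and Tap1 by 0.17. In that fit 31 of all genes and 0 of the 10 passed the adjusted threshold in limma, with Tapbp lowest of the 10 at an adjusted p of 0.065. With all libraries, 3 of 3 tested erythroid markers were lower in 5EL, 2 of them at a nominal p under 0.05, and 9 of 10 thalamic markers were lower, 4 of them at a nominal p under 0.05. Their part in the differences was not tested. The count was 4, with H2-D1, Tapbp, Cd74 and Ciita, without ELKO replicate 1 (1217 of 15830 genes). The same 4 passed without 5EL replicate 1 and ELKO replicate 2 together (1074 of 15820).

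For 5ELKO against ELKO, 0 of the 10 passed the adjusted threshold in limma (0% of all genes) and H2-K1 was the 1 gene at a nominal p under 0.05 (2.37% of all genes), at 0.18 ± 0.08 (adjusted p = 0.9995 in limma). H2-K1 was also the 1 gene without overlap, beside 3.4% of all genes. The nominal count was 0 without ELKO replicate 1, 2 or 3 or 5ELKO replicate 1 or 4, and 3 without 5ELKO replicate 2. Over all genes these omissions gave between 269 of 15798 (5ELKO replicate 4) and 794 of 15830 (ELKO replicate 1). The changes of the other class I genes were 0.10 for H2-D1, 0.20 for B2m, 0.12 for Tap1 and 0.06 for Tapbp, with intervals that included 0. Those of the class II genes ran from -0.05 (H2-Eb1) to 0.05 (H2-Ab1), with Cd74 at 0.01, and their intervals also included 0. The 2 contrasts have no library in common, and whether they differed was tested by the interaction term given with the Lilrb4a comparisons.

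**Figure D2:**
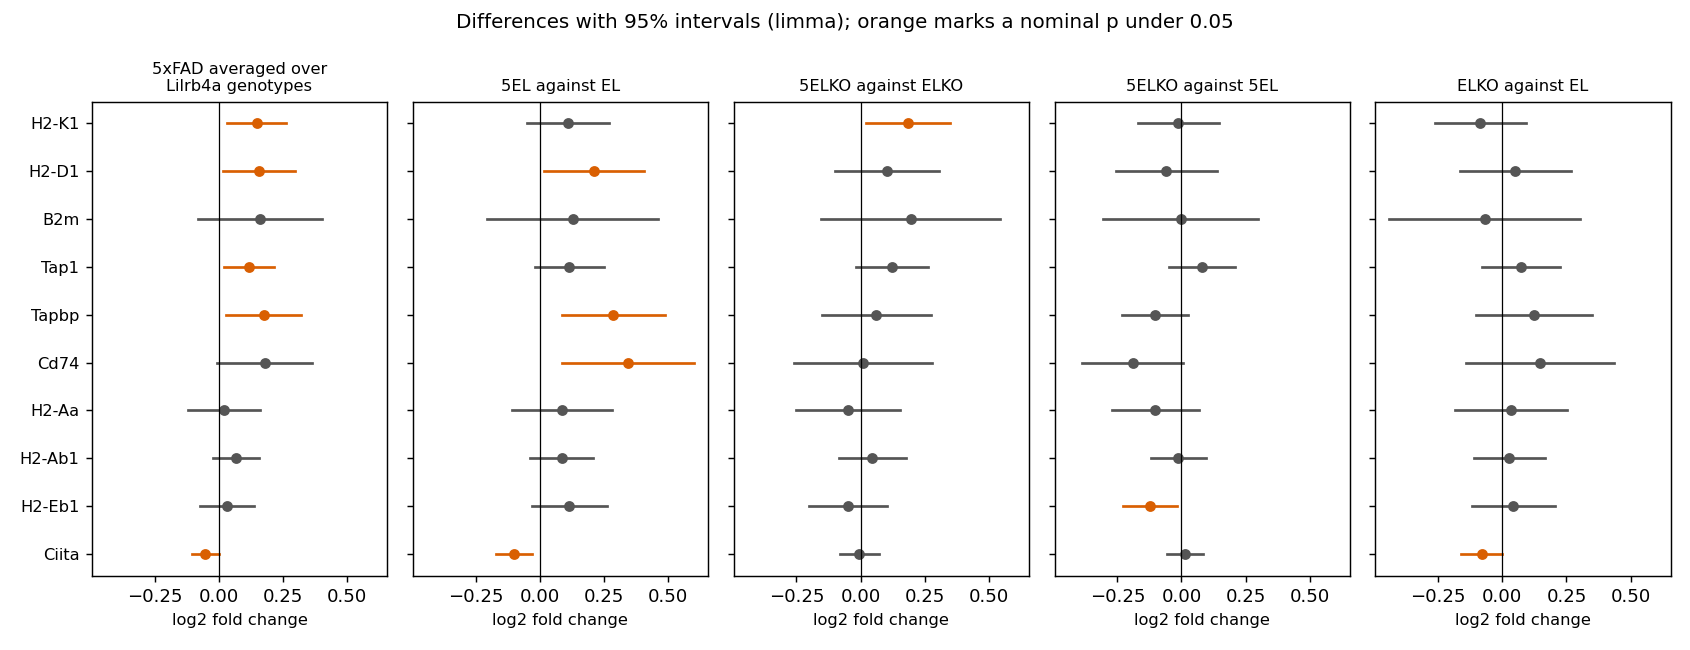
Log2 fold changes of the 10 genes (points) with 95% intervals (lines) from limma for 5 comparisons; orange marks a nominal p under 0.05 and the vertical line is 0. No gene passed an adjusted p under 0.05, and the class I genes lie to the right of 0 in all 3 comparisons of mice with and without 5xFAD.

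Cd74 was the most abundant class II gene and the 1 of them whose averaged difference with 5xFAD was as large as those of class I. Its log2 values were 6.14, 5.61, 5.81, 5.73 and 5.88 in 5EL replicates 1 to 5 and 5.69, 5.53, 5.71 and 5.64 in 5ELKO replicates 1 to 4. Without 5xFAD, Cd74 stood at 5.52, 5.61 and 5.33 in EL and at 5.54, 5.95 and 5.41 in ELKO replicates 1 to 3. 5EL replicate 1 at 6.14 and ELKO replicate 2 at 5.95 were the highest of all libraries. The averaged change with 5xFAD was 0.18 ± 0.09 (95% interval -0.01 to 0.36, adjusted p = 0.693 in limma). It was uneven, at 0.35 ± 0.12 in 5EL against EL and 0.01 ± 0.13 in 5ELKO against ELKO. The interaction term given with the Lilrb4a comparisons did not show these to differ. Without 5EL replicate 1 and ELKO replicate 2, Cd74 differed by 0.22, H2-Ab1 by 0.08 and H2-Eb1 by 0.08, each at a nominal p under 0.05, and H2-Aa by 0.03. None of them passed the adjusted threshold in limma over these 13 libraries.

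The class II chains themselves differed little. H2-Aa, the alpha chain of I-A, had log2 values that were 4.55, 4.07, 4.23, 4.12 and 4.21 in 5EL replicates 1 to 5 and 4.19, 4.12, 4.13 and 4.10 in 5ELKO replicates 1 to 4. Without 5xFAD, H2-Aa stood at 4.11, 4.21 and 4.13 in EL and at 4.15, 4.39 and 4.02 in ELKO replicates 1 to 3. Outside 5EL replicate 1 and ELKO replicate 2 its 13 values lay between 4.02 and 4.23. For H2-Eb1, the I-E beta chain, log2 values were 4.68, 4.60, 4.47, 4.62 and 4.55 in 5EL replicates 1 to 5 and 4.46, 4.39, 4.5 and 4.48 in 5ELKO replicates 1 to 4. Without 5xFAD, H2-Eb1 stood at 4.49, 4.43 and 4.49 in EL and at 4.39, 4.73 and 4.42 in ELKO replicates 1 to 3. The highest library was ELKO replicate 2 at 4.73, and 5EL replicate 1 was the highest of its group at 4.68. H2-Ab1, the beta chain of I-A, ranged from 3.90 to 4.16 in 5EL, 3.96 to 4.03 in 5ELKO, 3.86 to 3.95 in EL and 3.86 to 4.08 in ELKO. Averaged over Lilrb4a genotypes, the change with 5xFAD was 0.02 ± 0.07 for H2-Aa, 0.07 ± 0.04 for H2-Ab1 and 0.03 ± 0.05 for H2-Eb1, each with an interval that included 0.

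Ciita, the coactivator of class II transcription, differed by a small amount. Its averaged change was negative, whereas those of the other class II genes were positive with intervals that included 0. Its log2 values were 3.44, 3.51, 3.45, 3.50 and 3.52 in 5EL replicates 1 to 5 and 3.49, 3.45, 3.52 and 3.53 in 5ELKO replicates 1 to 4. Without 5xFAD, Ciita stood at 3.61, 3.62 and 3.52 in EL and at 3.50, 3.52 and 3.49 in ELKO replicates 1 to 3. EL replicates 1 and 2 were the 2 highest libraries, and the 4 groups overlapped. Averaged over Lilrb4a genotypes the log2 fold change of Ciita with 5xFAD was -0.05 ± 0.02 (adjusted p = 0.693 in limma), and 5 of the 15 single-library omissions kept a nominal p under 0.05. The Ciita change was -0.10 ± 0.03 in 5EL against EL and -0.005 ± 0.04 in 5ELKO against ELKO. Its level lies near the lower filter limit (log2 of 10), where this scale draws values together.

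Deletion of Lilrb4a was asked about in the study as the main comparison, 5ELKO against 5EL. None of the 10 genes passed the adjusted threshold in limma (0 of 10, beside 0.0191% of all genes), 1 passed at a nominal p under 0.05 (2.49% of all genes) and 0 had groups without overlap (1.06% of all genes). The 1 gene was H2-Eb1, with a log2 fold change of -0.12 ± 0.05 (adjusted p = 0.999 in limma), at a mean of 4.46 ± 0.05 (SD, n = 4) against 4.58 ± 0.08 (n = 5). Without 5EL replicate 1 the H2-Eb1 difference was -0.10 and the nominal count was 0, which was also the count without 5ELKO replicate 2. Leaving out 5EL replicate 2 or 4 gave 2.

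The other differences between 5ELKO and 5EL were small with wide intervals. Cd74 differed by -0.19 (95% interval -0.39 to 0.01), Tapbp by -0.10 (-0.23 to 0.03), H2-Aa by -0.10 (-0.27 to 0.07), Tap1 by 0.08 (-0.05 to 0.21) and H2-D1 by -0.06 (-0.26 to 0.14). H2-K1 differed by -0.01 (-0.17 to 0.15), B2m by -0.00 (-0.30 to 0.30), H2-Ab1 by -0.01 (-0.12 to 0.10) and Ciita by 0.01 (-0.06 to 0.08). These intervals leave room for differences of up to 0.30 either way in B2m, so they do not show that class I was alike in the 2 groups. Choroid plexus markers were lower in 5ELKO in 10 of 10 (median -0.37), with 5EL replicate 1 holding the highest 5EL value of each, and without that library the Cd74 difference was -0.11 and that of H2-Aa -0.03. Border macrophage markers were lower in 5ELKO in 5 of 5 tested (median -0.16), 3 of them at a nominal p under 0.05. Hepatocyte markers were higher in 9 of 9 (median 0.38), 8 of them at a nominal p under 0.05 and 3 past the adjusted threshold in limma. Tap1 correlated with the hepatocyte score at r = 0.61 over 15 libraries and at 0.71 within the 9 with 5xFAD. The part of these cell markers in the differences of H2-Eb1, Cd74 and Tap1 was not tested.

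Without 5xFAD, 0 of the 10 genes passed the adjusted threshold for ELKO against EL in limma (0% of all genes), 1 passed at a nominal p under 0.05 (2.35% of all genes) and 0 had groups without overlap (4.59% of all genes). That gene was Ciita, at -0.08 ± 0.04 (adjusted p = 0.998 in limma). With the replicate number as a block the nominal count was 0, beside 1110 of 15727 genes. The count was also 0 without ELKO replicate 1 (351 of 15830). Ciita kept a nominal p under 0.05 in 3 of the 15 single-library omissions. Without EL replicate 1 Tapbp took its place, beside 1832 of 15831 genes. Averaged over 5xFAD, the deletion gave 0 genes of 10 at either threshold in limma (0% of all genes adjusted, 1.8% nominal), and differences ran from -0.05 (H2-K1) to 0.08 (Tap1).

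The interaction asked whether the 5xFAD difference itself changed with Lilrb4a. It gave 0 of 10 genes at either threshold in limma (0% of all genes adjusted, 2.73% nominal). The largest terms were those of Cd74 at -0.34 ± 0.17 (95% interval -0.71 to 0.04) and Tapbp at -0.23 ± 0.14 (-0.52 to 0.07), each with an adjusted p of 0.9996 by limma. Without ELKO replicate 2 the Cd74 term was -0.18, that of H2-Aa -0.03 and that of H2-Eb1 -0.06 (from -0.14 and -0.17), and without 5EL replicate 1 and ELKO replicate 2 together the Cd74 term was -0.10. Without EL replicate 3 the Tapbp term was -0.11, and without EL replicate 1 it was -0.34. At a nominal p under 0.05 stood H2-Eb1 without ELKO replicate 1 (-0.23), Tapbp without EL replicate 1, Cd74 without 5EL replicate 2, Ciita without 5ELKO replicate 2 or EL replicate 3, and both Tapbp and Cd74 without ELKO replicate 3. Choroid plexus markers had negative terms in 10 of 10 (median -1.05) and hepatocyte markers positive terms in 9 of 9 (median 0.60). Cd74 and Tapbp passed the nominal threshold in 5EL against EL and not in 5ELKO against ELKO, and by this term the 2 contrasts were not shown to differ.

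Of 72 other genes of the pathways, 70 were in the files and 56 passed the filter on low values. None passed the adjusted threshold in limma in any comparison. With 5xFAD averaged, 8 of the 56 were higher (beside 3.56% of all genes) and 1 lower (3.01% of all genes) at a nominal p under 0.05, with 37 positive and 19 negative log2 fold changes. On the class I side, Tap2, the partner of Tap1, was higher by 0.18 ± 0.06 and the immunoproteasome subunit Psmb9 by 0.07 ± 0.03, both at a nominal p under 0.05, whereas the subunit Psmb8 differed by 0.01 ± 0.05. The class I coactivator Nlrc5 was higher by 0.08 ± 0.04 at a nominal p under 0.05, and Rfx5, part of the complex that binds class I and class II promoters, differed by 0.00 ± 0.05. On the class II side, Ctss, the protease that trims Cd74 in its last step, was higher by 0.32 ± 0.12 at a nominal p under 0.05, and H2-DMa, which helps load peptide on class II, differed by 0.02 ± 0.05. Others at a nominal p under 0.05, named after their values were seen, were Ctsb, Lgmn, Irf8 and Cd274 (higher) and Ifngr2 (lower), and the adjusted p of every gene named here was at least 0.693 by limma.

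For 5ELKO against 5EL, 0 of these 56 genes were higher (1.53% of all genes) and 2 lower (0.959% of all genes) at a nominal p under 0.05. In either direction that was 2 of 56, beside 2.49% of all genes. The 2 were Cd83 and the NF-Y subunit Nfyc. Tap2 differed by 0.06 ± 0.06, Nlrc5 by 0.02 ± 0.05 and Ctss by 0.02 ± 0.15.

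Plaque-associated microglia markers moved with the class I differences. The mean log2 value of 14 such genes, among them Trem2, Cst7 and Clec7a, was 7.76 ± 0.24 (SD, n = 9) with 5xFAD and 7.37 ± 0.06 (n = 6) without, and 13 of the 14 were higher with 5xFAD at a nominal p under 0.05 (0 adjusted, limma). The 4 libraries 5EL replicate 1 and 4 and 5ELKO replicate 1 and 4 were highest for them, at 7.92 or above, and 5EL replicate 2 and 5ELKO replicate 2 were the lowest with 5xFAD, at 7.47 and 7.40. Of their groups, 5EL replicate 2 also held the lowest H2-K1, H2-D1 and B2m, and 5ELKO replicate 2 the lowest H2-D1 and B2m.

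Over 15 libraries the mean of the 5 class I genes correlated with that of the 14 markers at r = 0.95 (Spearman rho = 0.88), at r = 0.97 over the 13 libraries without the 2 rich in choroid plexus, and at r = 0.95 over the 14 without ELKO replicate 1. Within the 9 libraries with 5xFAD the correlation was 0.92 and within the 6 without it was 0.18. These are descriptions, since all points share the tissue, the transform and the 5xFAD split. The single genes were unequal in this: H2-D1 (0.88), H2-K1 (0.84) and B2m (0.69) followed the markers, and Tap1 (0.54) and Tapbp (0.51) did so less, with 0.22 and 0.25 within 5xFAD.

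With the mean of 16 general microglia markers as a covariate, the 5xFAD change of H2-K1 was 0.03, that of H2-D1 was 0.03 and that of B2m turned to -0.15. That fit uses 1 slope for all libraries, whereas the class I mean correlated with the general microglia score at 0.93 within the 9 libraries with 5xFAD and at -0.70 within the 6 without. Within those 6, H2-D1 stood at -0.84, Tapbp at -0.89 and Tap1 at -0.75, whereas B2m stood at 0.92 and H2-K1 at 0.45. In the same fit Tap1 was at 0.13 and Tapbp at 0.20. B2m, Tap1 and Tapbp had a nominal p under 0.05 there, beside 2617 of 15804 genes, and none passed the adjusted threshold in limma. The microglia score was 8.70 ± 0.14 (SD, n = 9) with 5xFAD and 8.52 ± 0.07 (n = 6) without. Which cells the class I differences come from was not tested. More microglia, more class I RNA per microglial cell and class I RNA of other cells cannot be told apart here.

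Choroid plexus markers moved with class II. The mean of Cd74, H2-Aa, H2-Ab1 and H2-Eb1 was 4.88 in 5EL replicate 1 and 4.79 in ELKO replicate 2, against 4.42 to 4.65 in the other 13 libraries. All 4 genes were highest in those libraries within their groups, as were 10 of 10 choroid plexus markers. Over 15 libraries their mean correlated with the choroid plexus score at r = 0.88 (rho = 0.70), and at 0.65 (rho = 0.54) without the 2 libraries. Without ELKO replicate 1 it was 0.89. Within the 9 libraries with 5xFAD it was 0.93 (rho = 0.42), and 0.20 (rho = 0.17) without 5EL replicate 1, where H2-Ab1 stood at -0.69. Within the 6 libraries without 5xFAD it was 0.98, and 0.81 without ELKO replicate 2. Among single genes the correlation without the 2 libraries was 0.74 for Cd74, 0.55 for H2-Aa, 0.27 for H2-Ab1 and 0.05 for H2-Eb1, so for the last 2 it rested on those libraries. Being highest there was not limited to these class II genes. ELKO replicate 2 was also highest of ELKO for H2-K1, H2-D1, Tap1, Tapbp and Ciita. 5EL replicate 1 was also highest of 5EL for H2-K1. Over 15 libraries the class I genes correlated with the choroid plexus score at -0.24 (B2m) to 0.24 (Tapbp). Within the 6 without 5xFAD these ran from -0.45 (B2m) to 0.80 (H2-D1). Which cells of the choroid plexus or adjoining tissue carried the class II RNA was not tested.

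**Figure D3:**
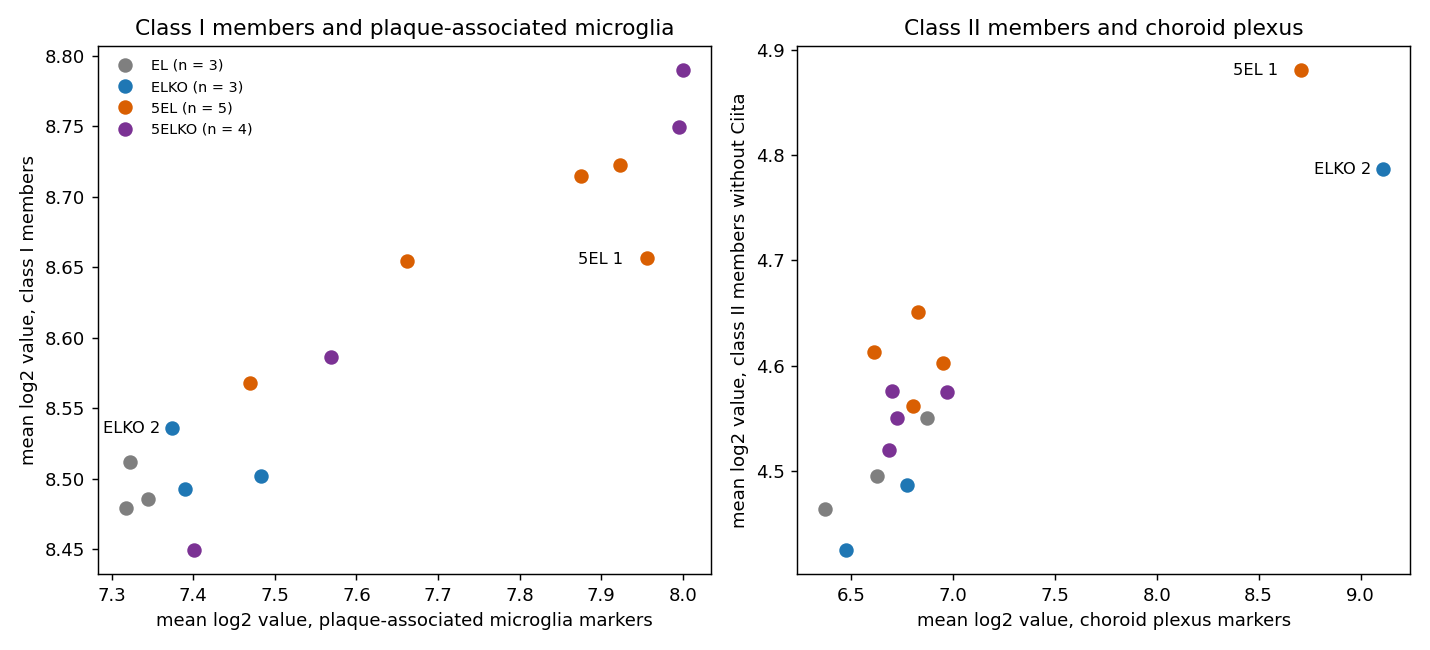
Left, mean log2 value of the 5 class I genes against that of 14 plaque-associated microglia markers; right, mean of Cd74, H2-Aa, H2-Ab1 and H2-Eb1 against that of 10 choroid plexus markers; each point is a library coloured by genotype (n = 15). Class I means ran from 8.45 to 8.79 along the microglial score, and 5EL replicate 1 and ELKO replicate 2 stood apart on the right at class II means of 4.88 and 4.79.

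Most B cell, T cell and dendritic cell markers were at or near the bottom of the scale, and most border macrophage markers were not. Of 6 B cell markers 1 (Ighm) and of 9 T cell markers 3 were at or above the filter limit in every library, and the mean was -1.55 for Ms4a1, -1.73 for Cd3d and -1.91 for Cd8b1. Dendritic cell genes Xcr1 (-1.37), Ccr7 (-1.91), Clec9a (1.54) and Cd209a (1.31) were as low, whereas Flt3 and Zbtb46, which other brain cells express, were at 8.19 and 6.89. Of 7 border macrophage markers 5 were at or above the limit in every library, with F13a1 at 5.90 and Mrc1 at 5.88. The mean of the 7 was 4.06 in 5EL replicate 1 and 4.02 in ELKO replicate 2, within the range of the other libraries (3.94 to 4.30). Over the 8 libraries with 5xFAD other than 5EL replicate 1, the mean of the 7 was set against that of Cd74, H2-Aa, H2-Ab1 and H2-Eb1. The 2 means correlated at 0.67 (rho = 0.74) there and at -0.03 over all 15 libraries. The part of border macrophages in the class II values was not tested.

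The genes whose pattern over 15 libraries was most like the mean of the class I genes, each gene first scaled to unit variance, were Gm8995 (r = 0.96), Serpina3n (0.95), Clec7a (0.95), Csf1r (0.95) and Laptm5 (0.94), of 15794 compared, and Gpnmb, Cst7, Ctsz and Cd68 were among those that followed. The genes named stayed between 0.93 and 0.97 without the 2 choroid plexus libraries and between 0.91 and 0.97 without ELKO replicate 1. The genes most like the mean of the 5 class II genes were Pon3, Cdkn1c and Steap2 (each 0.90), then Kl, Sostdc1, Wdr86, Igf2, Slc13a4, Nid2 and Ttr, and these fell to 0.47 to 0.85 without the 2 libraries and were 0.88 to 0.92 without ELKO replicate 1.

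Between members, the 3 class I chains correlated with each other with and without the 2 choroid plexus libraries, whereas the class II chains did so less without them, and Ciita did not follow the other class II genes. H2-K1 and B2m correlated at 0.75, H2-D1 and B2m at 0.65 and H2-K1 and H2-D1 at 0.62 over 15 libraries. Tap1 and Tapbp correlated at 0.62 with each other and at 0.57 and 0.60 with H2-D1, but at 0.02 and -0.02 with B2m. Cd74 correlated with H2-Aa at 0.85, with H2-Ab1 at 0.74 and with H2-Eb1 at 0.72, which became 0.63, 0.37 and 0.44 without the 2 choroid plexus libraries. Cd74 also correlated with the class I genes H2-D1 and Tapbp, at 0.52 and 0.60 in all libraries and at 0.74 and 0.77 without the 2. Without ELKO replicate 1 the class I chains correlated at 0.62 to 0.73 and the class II chains H2-Aa, H2-Ab1 and H2-Eb1 at 0.64 to 0.78. The correlations of Ciita with the other class II genes ran from -0.37 to 0.07 in all libraries and without the 2.

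**Figure D4:**
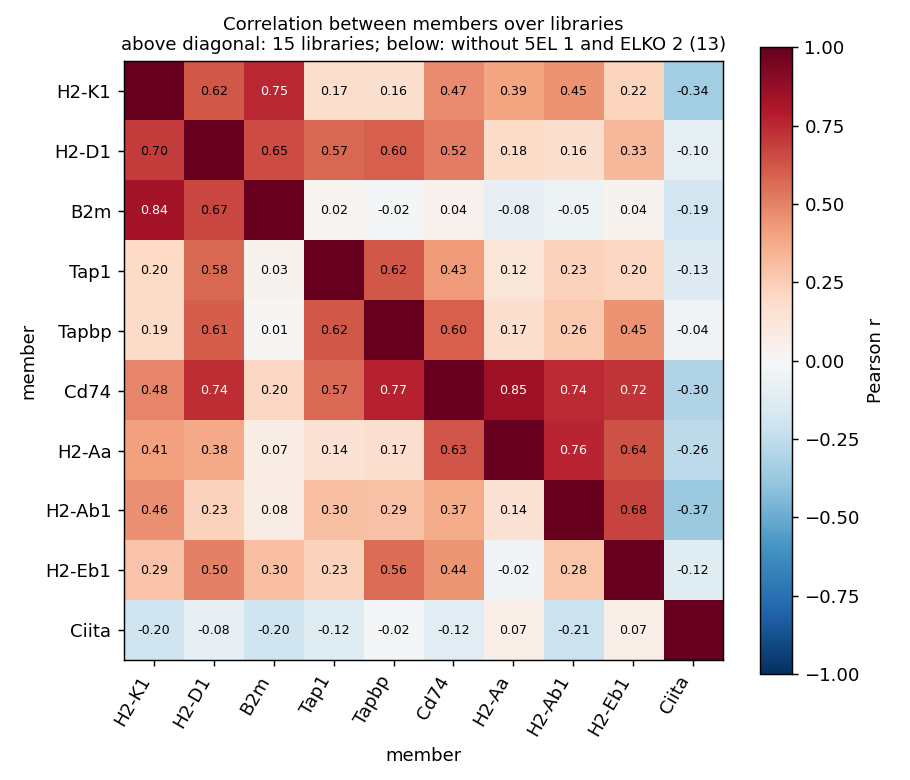
Pearson correlation between the 10 genes over libraries (both axes list the genes), above the diagonal for all 15 libraries and below it for the 13 without 5EL replicate 1 and ELKO replicate 2; colour runs from -1 (blue) to 1 (red). The class I chain block kept 0.62 to 0.84 in both, and the pairs among H2-Aa, H2-Ab1 and H2-Eb1 fell from 0.64 to 0.76 to between -0.02 and 0.28.

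The genes lie in known positions, and some share sequence with others. On GRCm38 (GENCODE M21), H2-K1 (ENSMUSG00000061232.16) lies at chr17:33996017-34000347 on the minus strand, H2-D1 (ENSMUSG00000073411.11) at chr17:35262730-35267499, Tap1 at chr17:34187553-34197225 and Tapbp at chr17:33915899-33929292. The class II genes H2-Ab1, H2-Aa and H2-Eb1 lie between positions 34257689 and 34316674 of the same chromosome, B2m at chr2:122147686-122153083, Cd74 at chr18:60803848-60812652 and Ciita at chr16:10480059-10528418. Reads had been counted by gene name without strand, so shared and overlapping stretches are uncertain. Of 50-base windows of the transcript, 14.3% in H2-D1 and 8.79% in H2-K1 were identical in another gene. The genes sharing most were H2-Q1, H2-Q7 and H2-Q6 for H2-D1 (of 168) and H2-D1, H2-Q1 and H2-T23 for H2-K1 (of 25). In Tapbp 29.0% of exon bases were overlapped by Gm19412 and Zbtb22, and 21% of its windows were identical in another gene (416 genes). The share was 6.47% in Tap1, whose neighbour Psmb9 overlaps it, 0.269% in Ciita and 0% in B2m, Cd74, H2-Aa, H2-Ab1 and H2-Eb1.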

How the data were processed

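Thalamic RNA of 15 libraries in 4 genotype groups was measured by RNA-seq. The authors' notes list FastQC 0.11.9, Trimmomatic 0.39, HISAT2 2.2.1, SAMtools 1.16.1, featureCounts 2.0.3 and DESeq2 1.38.3, with GRCm38. The authors deposited log2 values for 29659 genes per library, from -2.27 to 18.98. The transform is not given in the sources used here, and no counts were used, so depth per library could not be derived from the values. A shrinking transform understates changes of low genes.

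Genes at the log2 of 10 or more in 3 of 15 (15804 genes) or, for 5ELKO against 5EL, 4 of 9 libraries (15743) were fitted with limma 3.58.1 in R 4.3.3 (lmFit, eBayes with a trend), with Benjamini-Hochberg adjustment over all genes tested and a threshold of 0.05. The 5ELKO against 5EL fit used its 9 libraries and all others used 15. All 10 genes passed the filter in both fits, so no exact test was needed. Intervals are 95%. The fit was tested on simulated data, with genes drawn independently and changes larger than those of the 10 genes. That test does not show how well differences as small as these are found. Named genes were the 10, any pathway gene past the adjusted threshold, Nlrc5, Rfx5, Tap2, Psmb8, Psmb9, H2-DMa and Ctss, the markers, and the 10 genes most like each class. A few of these are not reported here. The genes, lists and alternatives were chosen with earlier results of these data known.

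Replicate numbers come from the labels. Deviations of EL and ELKO libraries with the same number correlated (0.325 to 0.742, 3 of 3 pairs), whereas no other 2 groups had every correlation over 0.1. Libraries with different numbers were not compared, and the 3 deviations of a group are not independent, so a pairing was not shown. The labels state none. Alternatives were the filter, the variance prior, recentring, a replicate block, an Xist or microglia covariate, other choices of libraries, and each library left out. Xist stayed between 0.17 and 0.31, below the filter limit, in all 15 libraries, so its covariate had little spread to adjust for. Correlations without ELKO replicate 1, and without ELKO replicate 2 among libraries without 5xFAD, were added after seeing the data. Figures were drawn with matplotlib 3.10.9 in Python 3.11.15.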

Additional observations from a re-analysis of the deposited data

How the results depend on the processing

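No gene of the 10 passed an adjusted p under 0.05 (limma) in any comparison under any alternative, so the changes here are counts at a nominal p under 0.05. Counts over all genes at the same threshold stand in brackets. A replicate block, in libraries whose number the groups share, took the count from 4 to 2 for 5EL against EL (1010 of 15737). It went from 1 to 0 for 5ELKO against ELKO (246 of 15734) and from 5 to 0 for 5xFAD averaged (851 of 15791). For 5ELKO against 5EL it went from 1 to 2 (383 of 15730) and for ELKO against EL from 1 to 0 (1110 of 15727). For the interaction it went from 0 to 1 (784 of 15804). The numbers were not shown to pair the libraries, and the fits used fewer libraries. Without 5EL replicate 1 and ELKO replicate 2 together the count was 2 for 5ELKO against ELKO (302 of 15820). It was 0 for 5ELKO against 5EL (482 of 15735), 0 for ELKO against EL (188 of 15820) and 1 for the averaged deletion (170 of 15820). With the microglia score as a covariate it was 0 for 5ELKO against ELKO (700 of 15804) and 3 for 5xFAD averaged (2617 of 15804). That covariate gave 0 for ELKO against EL (386 of 15804). The count was also 0 for ELKO against EL with no filter (916 of 29659) or a robust fit (378 of 15804). The same held with Xist as a covariate (349 of 15804) or its own 2 groups (173 of 15727). On all 15 libraries it was 0 for 5ELKO against 5EL (290 of 15804). Recentring gave 1 for the interaction (470 of 15804). Leaving out 1 library at a time, the count ran from 1 to 5 for 5EL against EL, 0 to 3 for 5ELKO against ELKO, 1 to 7 for 5xFAD averaged, 0 to 2 for 5ELKO against 5EL, 0 to 1 for ELKO against EL, 0 to 1 for the averaged deletion and 0 to 2 for the interaction. The cause of these changes was not tested. The files give no counts, so what depth limits was not tested. The study lists read totals and RNA integrity for 5EL and 5ELKO libraries, which were not used here, and none for EL and ELKO.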
